A study of Mus musculus with 2 samples.

Results

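The mouse genes whose names begin with Kcn encode potassium channels and their auxiliary subunits, and 90 of them were examined here among 21670 protein-coding genes of the GENCODE M21 annotation on chromosomes 1 to 19 and X. They were chosen by name, leaving out the 4 channels Kcnj1, Kcnj10, Kcnj16 and Kcnq1. The data were 2 DNase-seq libraries (replicates 1 and 2) of whole kidney from female B6CASTF1/J mice aged 8 to 10 months, first-generation hybrids of C57BL/6J and CAST/EiJ parents, so that both libraries carry 1 chromosome set that differs from the reference genome. The libraries form 1 group without any contrasting condition, come from separate tissue samples under a common donor entry, and allow no test between conditions, so every comparison below is a description.

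Potassium channels let potassium ions leave or enter a cell along their electrochemical gradient and so set its membrane voltage. In the nephron they recycle potassium across the basolateral membrane beside the sodium pump, secrete it into the urine in the distal segments, and hold the voltage that drives salt transport. In renal vessels they govern the tone of smooth muscle, and outside the kidney many members of the family shape action potentials in neurons and heart muscle.

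DNase I cuts DNA where chromatin is accessible, and a peak marks such a stretch. A promoter was counted as open where peaks of both libraries overlapped each other and reached into the 500 bases on either side of a protein-coding transcription start site (TSS) of the gene. Other promoters are called closed, meaning that no such region was detected at this depth. Values are the signal that the authors deposited for each peak, of which a higher value means more cuts, taken from the strongest such region of the gene. In whole tissue, fewer cells of a type and less accessibility per cell cannot be told apart.

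Promoter sequences are printed for 4 channels, given as examples and not as a sample of the family. The 200 bases before the most 5′ coding TSS are given 5′ to 3′ on the gene's strand from the GRCm38 (mm10) genome, with every CpG dinucleotide in capitals. None of the 4 stretches overlaps an annotated exon.
Kcnk5, open, chr14:20181810-20182009, minus strand: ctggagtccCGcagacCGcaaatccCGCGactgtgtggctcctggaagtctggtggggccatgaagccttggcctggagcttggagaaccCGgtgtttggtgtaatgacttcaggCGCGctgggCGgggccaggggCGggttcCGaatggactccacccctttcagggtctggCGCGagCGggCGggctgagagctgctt
Kcnj2, open, chr11:111065964-111066163, plus strand: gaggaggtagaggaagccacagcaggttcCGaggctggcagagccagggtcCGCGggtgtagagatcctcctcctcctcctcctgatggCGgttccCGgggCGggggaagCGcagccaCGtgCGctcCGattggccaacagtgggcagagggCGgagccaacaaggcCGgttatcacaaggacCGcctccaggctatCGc
Kcnj12, closed, chr11:61022364-61022563, plus strand: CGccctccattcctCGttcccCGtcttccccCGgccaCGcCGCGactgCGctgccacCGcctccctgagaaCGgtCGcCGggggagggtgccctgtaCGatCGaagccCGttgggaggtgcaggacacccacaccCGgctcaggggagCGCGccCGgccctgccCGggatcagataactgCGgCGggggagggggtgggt
Kcnj4, closed, chr15:79505242-79505441, minus strand: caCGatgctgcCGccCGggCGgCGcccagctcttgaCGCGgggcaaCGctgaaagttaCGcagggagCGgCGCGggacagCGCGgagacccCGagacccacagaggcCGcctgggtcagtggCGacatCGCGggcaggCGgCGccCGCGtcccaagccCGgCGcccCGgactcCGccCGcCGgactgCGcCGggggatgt
The open Kcnk5 and Kcnj2 stretches each held 14 CpG dinucleotides, and the closed Kcnj12 and Kcnj4 stretches held 22 and 31. Across these 4 example genes the open promoters were the ones with fewer CpG. Over the family, split at the CpG limit used below, the order was reversed. Of channel genes at or over that limit 56.2% were open, and of those under it 33.3%. Of the transcription factor consensus letters searched, only the SP/KLF word GGGGCGGGG was found, once, in the Kcnj2 stretch.

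Of the 90 channel genes, 41 (45.6%; exact binomial 95% interval 35.0 to 56.4) had an open promoter, against 63.0% of all protein-coding genes. In the shorter, stricter peak list, 31 were open, against 58.9% of all genes, and with the stronger 50% of peaks 20 (22.2%) were, against 56.5%. The open promoters were also weak. Their median signal was 0.918, against 4.78 over all open genes. A signal over 4 was reached by 4 of the 41, Kcnab2, Kcnj2 and Kcnk5 among them, against 56.4% of all open genes. The open share was then split by CpG content. Where any coding TSS had a CpG ratio (observed over expected in about 1 kb around the TSS) of at least 0.6, 27 of 48 channel genes (56.2%; exact interval 41.2 to 70.5) were open, against 91.7% of all such genes. Where every TSS lay below 0.6, 14 of 42 (33.3%) were open, against 32.0% of all such genes. This near-equal share joins unlike classes. From 0.4 to 0.6 the channels were lower (45.0% against 68.4%), and below 0.4 they were higher (22.7% against 17.9%). Of all such genes 7524 of 10438 lay below 0.4, and of the channels 22 of 42.

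In the highest CpG class, at 0.8 and over, 8 of 19 channel genes (42.1%) were open and 94.5% of all genes were. From 0.7 to 0.8 the shares were 64.7% and 91.3%, from 0.6 to 0.7 they were 66.7% and 86.2%, from 0.4 to 0.6 they were 45.0% and 68.4%, and below 0.4 they were 22.7% and 17.9%. The share of open promoters over all genes rose from class to class with CpG content, and that of the channels was highest from 0.6 to 0.7. The 21 closed channel genes with a CpG ratio of at least 0.6 included Kcnq3 and Kcnq5, at ratios of 0.765 and 0.858, which take part in the slow M-type current of neurons and smooth muscle. At 16 of the 21, neither library listed a peak in any promoter window, a share not computed for all 932 closed genes at or over that ratio.

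**Figure D1:**
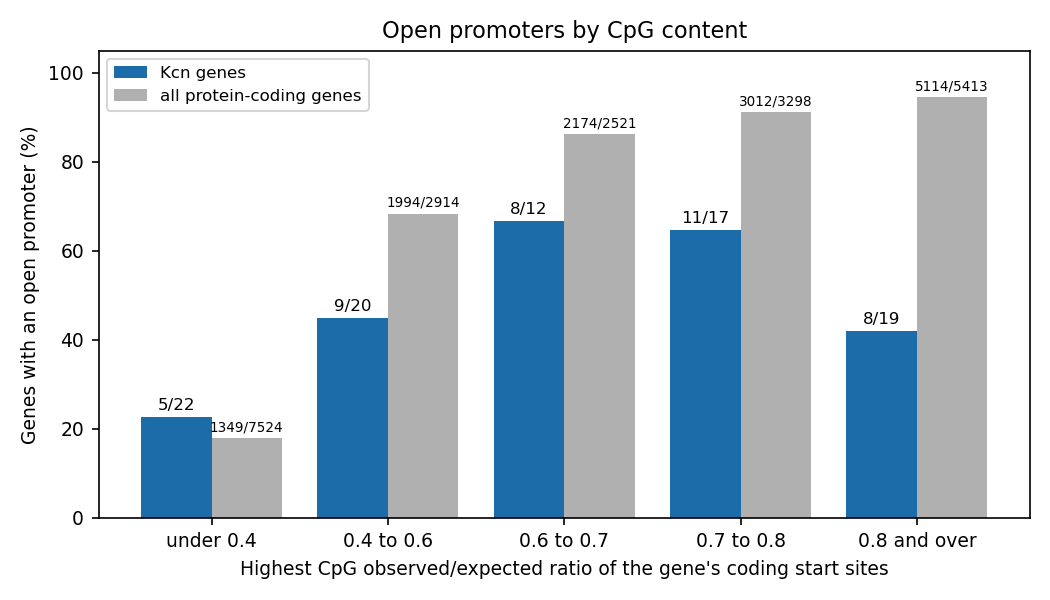
Share of genes with an open promoter (vertical axis, percent) by the highest CpG observed over expected ratio among the gene's coding TSS (horizontal axis, 5 classes), for the 90 Kcn genes (blue) and all protein-coding genes (grey). Numbers above bars are open genes over all genes of the class; at 0.8 and over the shares are 42.1% and 94.5%.

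Among the inward rectifiers, which pass potassium most easily near the resting voltage, 4 of 12 were open. Kcnj2, whose channel sets the resting potential of vascular and striated muscle, had signals of 5.70 in replicate 1 and 7.48 in replicate 2. Both values lay above those of the other 11 members of the class, which leaves out Kcnj1, Kcnj10 and Kcnj16. Its region, chr11:111065981-111066200, held 7 footprints of replicate 1 and 5 of replicate 2, a footprint being a short stretch inside an open region that was cut less than its surroundings. The other members of the Kcnj2 branch, Kcnj12, Kcnj4 and Kcnj14, had no promoter peak in either library. The nearest shared region lay 5737 bases from the Kcnj12 TSS, 780 from that of Kcnj4 and 5979 from that of Kcnj14.

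Kcnj8 and Kcnj11 encode the pores of ATP-sensitive potassium channels, Kcnj8 that of vascular smooth muscle and pericytes and Kcnj11 that of pancreatic beta cells and heart. Kcnj8 measured 1.00 and 1.38, and Kcnj11 measured 0.893 and 1.80. The 2 libraries differed 2.02-fold at Kcnj11. The sulfonylurea receptor genes that lie beside them, Abcc9 near Kcnj8 on chromosome 6 and Abcc8 near Kcnj11 on chromosome 7, were both closed, with a single peak in replicate 1 at Abcc9 (0.281) and none at Abcc8. Kcnj13, a rectifier of epithelia such as choroid plexus and retinal pigment epithelium, was open at the low level of 0.513 and 0.392.

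Kcnj15 encodes a basolateral rectifier of the proximal tubule, and its promoter did not meet the rule. Replicate 1 listed a peak of 1.07 there, and replicate 2 listed none. The gene nevertheless held 5 shared regions in its introns. The strongest, 30.3 kb into the gene, had signals of 4.42 and 2.64. The others lay 2.41 and 1.85, 0.653 and 0.942, 1.74 and 2.53, and 1.73 and 1.82 in replicates 1 and 2. The last of these is 252 bases from a predicted RefSeq mRNA start, and with RefSeq starts in place of GENCODE starts the gene counted as open.

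Some inward rectifier genes lie in neighbouring pairs, and openness differed within 2 of the pairs examined. Kcnj9, a partner in neuronal channels opened by G proteins, was closed, while its neighbour Kcnj10 on chromosome 1 measured 2.13 and 2.53. Kcnj5, another G protein-gated subunit, known from the heart and the adrenal zona glomerulosa, was closed, while its neighbour Kcnj1 on chromosome 9 measured 4.52 and 2.81. On chromosome 11 both neighbours were open, Kcnj2 as given above and Kcnj16 at 7.81 and 3.64. On chromosome 16, neither Kcnj6 nor Kcnj15 met the rule. The other G protein-gated subunits, Kcnj3 and Kcnj6, had no promoter peak in either library.

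The two-pore channels carry background potassium currents, and 5 of 14 had open promoters. Kcnk5, an alkali-activated channel of the proximal tubule that accompanies bicarbonate transport, led with 5.24 and 7.42 at chr14:20181761-20181980. Kcnk1, a weakly rectifying channel abundant in tubule epithelium, measured 2.14 and 1.87. Kcnk13, a halothane-inhibited channel, measured 1.04 and 1.84. Its close relative Kcnk12 was lower, at 0.347 and 0.475. Kcnk3, an acid-sensitive channel of glomus cells, adrenal cortex and vascular smooth muscle, measured 0.728 and 1.11. The closed members comprised Kcnk2, Kcnk4, Kcnk6, Kcnk7, Kcnk9, Kcnk10, Kcnk15, Kcnk16 and Kcnk18, and no library listed a promoter peak at any of these 9.

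Of the channels gated by intracellular calcium or sodium, 5 of 8 were open. Kcnn3, the small-conductance channel of vascular endothelium, measured 3.66 and 3.28. Kcnn1, a relative studied mainly in brain, measured 2.27 and 2.95 at a TSS inside the gene, 6098 bases from its most 5′ coding TSS. Kcnt1 and Kcnt2, the sodium-activated pair, measured 1.12 and 1.33, and 0.463 and 0.575. Kcnma1, the large-conductance BK channel of smooth muscle, distal nephron and neurons, measured 0.488 and 0.425, also at a TSS inside the gene. The BK auxiliary genes Lrrc26 and Lrrc52, which are not named Kcn, measured 2.05 and 2.12, and 3.0 and 2.44, while Lrrc38 and Lrrc55 of the same group were closed. Kcnn4, the intermediate-conductance channel of lymphocytes, red cells and secretory epithelia, had no promoter peak in either library. Kcnu1, the sperm channel, had none either.

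The voltage-gated alpha subunits form the largest class, and 19 of 39 were open. Of the ether-a-go-go members, 5 of 8 were open. Kcnh1 measured 2.41 and 3.94, Kcnh2 (the cardiac hERG channel) 1.53 and 1.27 at a TSS inside the gene, Kcnh6 0.943 and 1.5, Kcnh3 0.661 and 0.917, and Kcnh7 0.198 and 0.217. Kcnh7 was the lowest open promoter of the family.

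Kcnb2, a slow delayed rectifier, was open at 0.223 and 0.417. Electrically silent subunits assemble with channels of its kind and alter their gating. All 4 Kcng genes of this kind were open with low signals of 0.395 to 0.669 (means of the 2 libraries), but only Kcng1 remained so in the shorter peak list. Of the 3 Kcns genes, 2 were open, Kcns3 at 0.529 and 0.592 and Kcns2 at 0.405 and 0.567. Kcnf1, Kcnv1 and Kcnv2, also silent subunits, were closed.

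The Shaker-type alpha genes lie in clusters and were mostly closed. On chromosome 3, Kcna3, the channel of T lymphocytes, was open at 0.446 and 0.459, while Kcna2 and Kcna10 beside it were closed. On chromosome 6, Kcna1, Kcna5 and Kcna6 were all closed. Kcna1 is the channel of the distal convoluted tubule linked to magnesium handling, and only replicate 2 listed a peak at its promoter (0.242). Kcna7, a channel of muscle, was the remaining open gene of this type, at 1.18 and 3.18, a 2.69-fold difference between the libraries. Its region does not cover the TSS but lies 273 bases away, and with RefSeq starts the gene counted as closed. Of the A-type Kcnd channels, Kcnd2 was open at 0.223 and 0.292, Kcnd3 had a peak in replicate 2 alone (0.459) and Kcnd1 had none.

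Auxiliary subunits bind the channels and change their trafficking or gating, and 8 of 16 were open. Kcnab2, a cytoplasmic beta subunit of Shaker-type channels, had the highest promoter signal of the family, 16.5 and 18.2, at chr4:152477461-152477720. The promoter window of the adjoining gene Nphp4 reaches the same region, so the signal cannot be credited to either gene. It was the only 1 of the 41 open channel promoters (2.44%) that shared its strongest region with another coding gene, against 16.9% of all open genes. Kcnab3 measured 3.70 and 4.08, whereas Kcnab1 had small peaks in both libraries (0.232 and 0.2) that did not overlap.

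The calcium-binding partners of Kcnd channels were open at 3 of 4 genes, Kcnip2 at 1.37 and 1.63, Kcnip3 at 1.26 and 1.39 and Kcnip4 at 0.802 and 0.717. Of the single-pass Kcne subunits, Kcne3, which partners Kcnq1 in epithelia, measured 0.893 and 0.759 and Kcne4 measured 0.785 and 0.692. Kcne1, which forms the slow cardiac current with Kcnq1 and is also known from the proximal tubule, had no promoter peak, nor had Kcne2 and Kcne1l. Kcnmb1, the BK subunit of smooth muscle, was weakly open at 0.339 and 0.283.

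**Figure D2:**
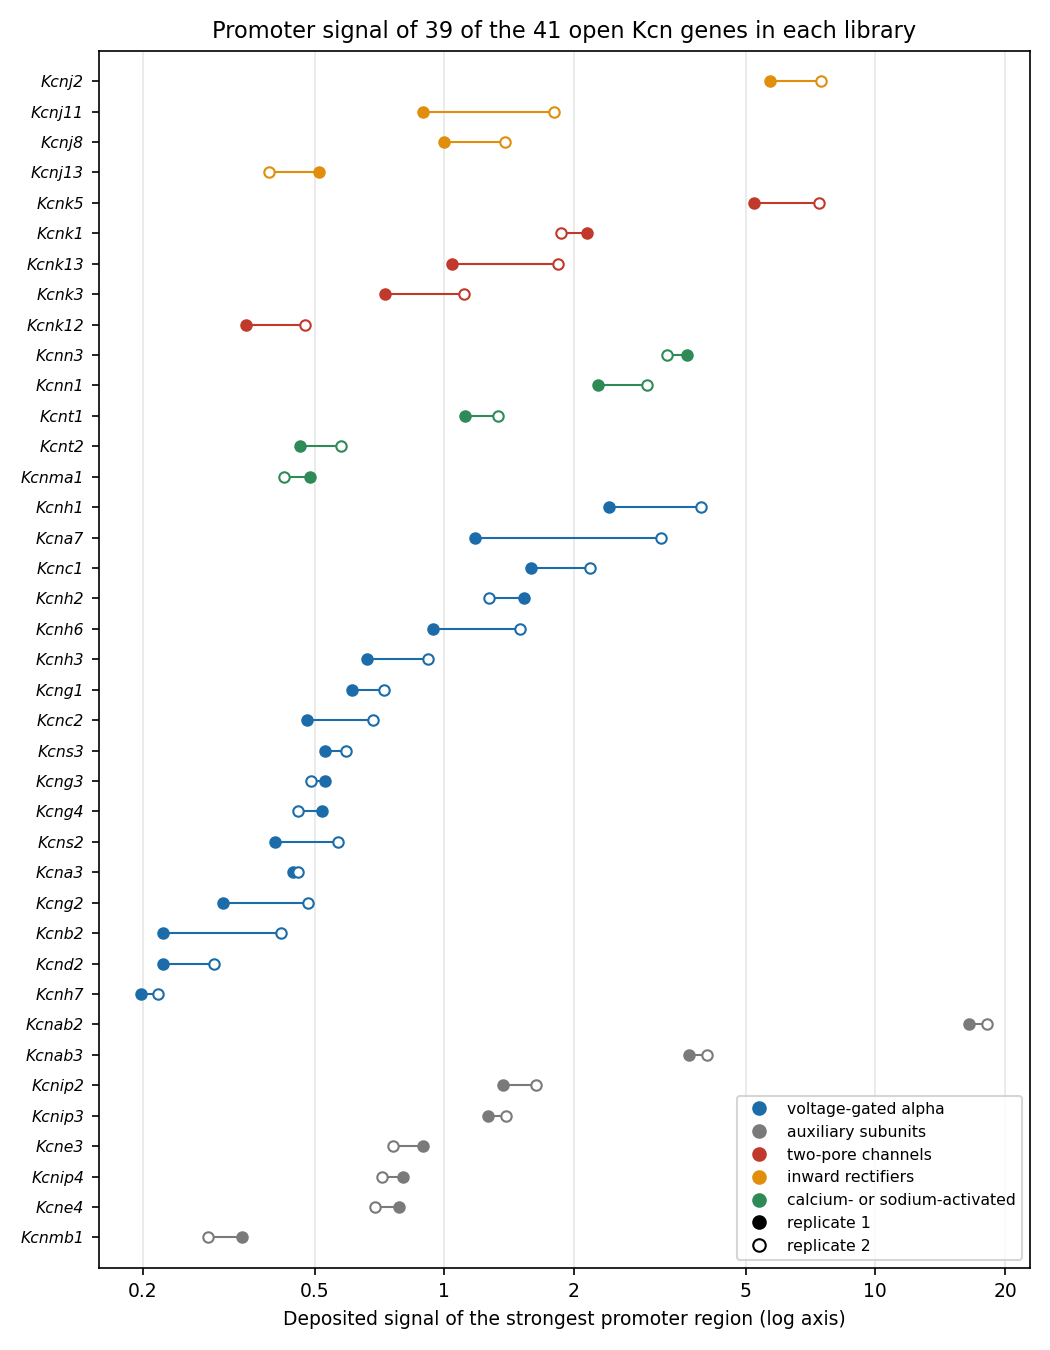
Deposited signal (horizontal log axis) of the strongest promoter region of 39 of the 41 open Kcn genes, in replicate 1 (filled) and replicate 2 (open circle), coloured by channel class, with a line joining the libraries. Kcnab2 lies farthest right, and the widest gap between libraries is at Kcna7 (1.18 and 3.18).

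Between the libraries, 3 of the 41 promoters differed over 2-fold (among them Kcna7 2.69-fold and Kcnj11 2.02-fold), all higher in replicate 2, against 2.87% of all open genes. Replicate 2 was the higher library at 29 of the 41 (70.7%), against 62.1% of all open genes. The strongest region covered a coding TSS at 23 (56.1%), against 78.8% of all open genes, and lay in the window of the most 5′ TSS at 31 (75.6%), against 88.9%. Overlapping footprints of both libraries were present at 28 (68.3%), against 92.6%. Signal was lower at the channels' open promoters (median 0.918 against 4.78), and its part in the footprint share was not tested.

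Of the 49 closed channel genes, 38 had no peak in a promoter window in either library, against 7248 of all 8027 closed genes, a larger share. At 34 of the 49, no base had a false discovery rate (FDR) of at most 0.05. For this count and those that follow, the share over all closed genes was not computed. A peak in 1 library alone was present at 9. Replicate 1 alone listed Kcnj15 (1.07), Kcnmb3 (0.579) and Kcnq5 (0.149), and replicate 2 alone listed Kcna1 (0.242), Kcna10 (0.325), Kcnd3 (0.459), Kcnn2 (0.617) and Kcns1 (0.525) among its 6. The remaining pair, Kcna4 and Kcnab1, had peaks in both libraries that did not overlap. With the single exception of Kcnj15, these peaks lay below the median of the open channel promoters. At the edge of the rule, the lowest open promoters were Kcnh7 (0.198 and 0.217), Kcnd2 (0.223 and 0.292) and Kcnmb1 (0.339 and 0.283).

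By tissue of best-known function, 5 of 11 channels of tubule epithelium were open (Kcnk5, Kcnk1, Kcnk13, Kcne3 and Kcnma1), 5 of 8 of the vessel wall (Kcnj2, Kcnn3, Kcnj8, Kcnk3 and Kcnmb1), 6 of 12 of neurons, 3 of 7 of heart, and 1 of 4 of lymphocyte and inner ear. The exact intervals of these shares are wide, 16.7% to 76.6% for tubule epithelium, those of the 5 lists overlap, and each holds both the share of all channel genes (45.6%) and that of all genes (63.0%). The neuronal list's open genes included Kcnc1, Kcnt1, Kcnh3, Kcnc2 and Kcnd2, of which Kcnc1 measured 1.59 and 2.18. Among 28 genes that partner potassium channels or handle potassium beside them, 23 (82.1%; exact interval 63.1 to 93.9) were open, against 63.0% of all genes. The open ones had a median of 5.04, against 4.78 over all open genes. The 28 were chosen with earlier results of these data known. They included the mineralocorticoid receptor gene Nr3c2 (13.6 and 11.9) and the kinase gene Wnk1 (12.2 and 10.2). Both lay above every channel promoter but Kcnab2 in both libraries. The 5 closed partners were Abcc8, Abcc9, Dpp10, Lrrc38 and Lrrc55.

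As a check of the labelled tissue, 7 of 8 kidney epithelium markers had open promoters (Aqp2, with a peak in replicate 1 alone, was closed). So did 3 of 3 endothelium markers, 2 of 4 of smooth muscle and mural cells, 1 of 3 of podocytes and 1 of 4 of neurons (Syp, at 1.55 and 2.04). None of 3 immune or 3 adrenal cortex markers was open. Ttn (1.46 and 1.70) and Actn2 (0.967 and 0.95) made 2 of 4 for striated muscle, and Plin1 (0.827 and 1.64) made 1 of 2 for adipocytes. The part of other cell types in the channel promoters was not tested.

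Outside all promoter windows, the gene bodies and their 10 kb flanks held 294 shared regions, called distal here. At least 1 was present at 74 of the 90 channel genes (82.2%), against 72.4% of all protein-coding genes, and the median was 2 in both. The closed channel genes had distal regions nearly as often as the open ones, at 40 of 49 (81.6%) and at 34 of 41 (82.9%). Over all genes the shares were 49.0% of closed and 86.1% of open genes. The closed channel genes were also longer, with a median of 20.6 kb against 8.41 kb for all closed genes, so length moves with this difference, and its part was not tested. Introns held 177 of the 294 regions, the upstream flank 57, the downstream flank 39 and exons 21, and 22 lay inside the body of another coding gene. These places were not counted over all genes, whose median length was 17.4 kb against 28.0 kb for the channels.

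Kcnma1, one of the longest members at 725 kb, held the most distal regions, 27, most of them weak. Its strongest measured 4.45 and 1.69, 179 kb into the gene. It was 1 of 10 channel distal regions (3.4%) over 2-fold higher in replicate 1, against 5.21% of all distal regions. Kcnh1 followed with 13, Kcnip1 and Kcnn2 with 11 each, Kcnd3 with 10 and Kcnn1 with 9. Kcnip1, Kcnn2 and Kcnd3 were closed at the promoter, although Kcnip1 and Kcnn2 counted as open with RefSeq starts and Kcnn2 and Kcnd3 with a window of 2000 bases. Kcnn1 is short among them, 21.2 kb, where genes of 20 to 50 kb had a median of 2 and a middle range of 1 to 4. Most of the 9 Kcnn1 regions lay in its flanks and not in the gene, some of them inside the neighbouring genes Ccdc124 and Arrdc2. Most longer members held fewer than other genes of their length. The medians of channels and of all genes were 1 and 2 at 10 to 20 kb, 1.5 and 4 at 50 to 100 kb, 2 and 6 at 100 to 200 kb, 5 and 9 at 200 to 500 kb, and 6 and 11.5 beyond. Channels were higher at 20 to 50 kb (4 and 2) and below 5 kb (1 and 0.5), and equal at 5 to 10 kb.

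**Figure D3:**
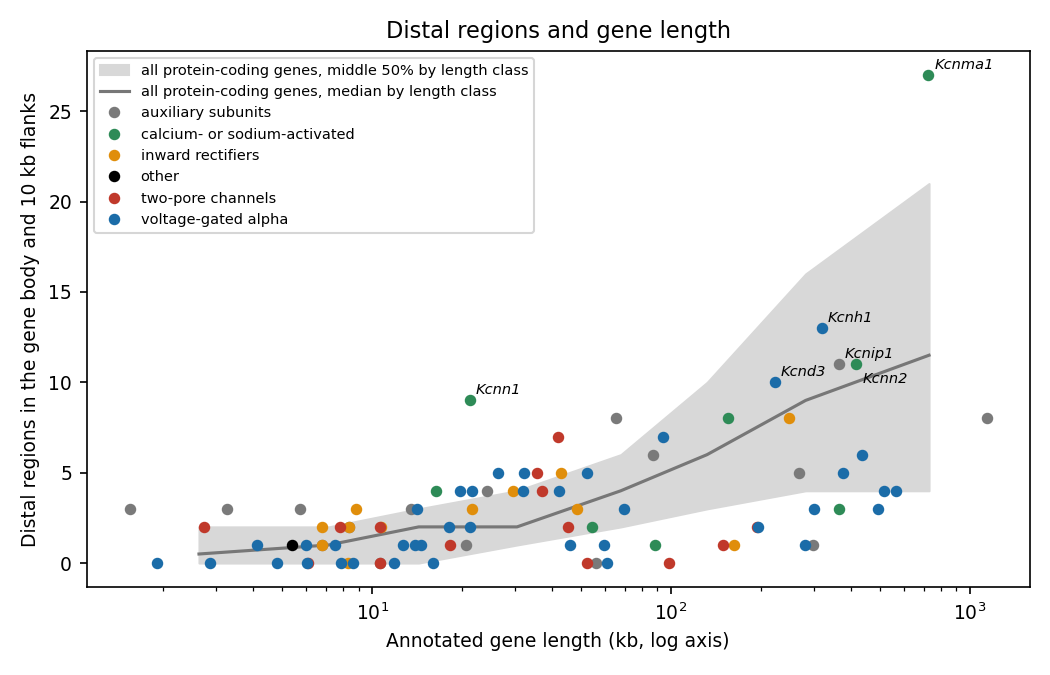
Number of distal regions (vertical axis) against annotated gene length (horizontal log axis, kb) for the 90 Kcn genes, coloured by class, over the median (line) and middle 50% (band) of all protein-coding genes in 8 length classes. Regions were counted in the gene body and its 10 kb flanks, 27 at Kcnma1 (length 725 kb) and 9 at Kcnn1 (length 21.2 kb).

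The distal regions that stood out are shown with their sequences on the plus strand of mm10, where capitals mark bases that lie in a footprint of both libraries. They were picked for the strongest signal, for an open tubule channel, for a tubule channel with a closed promoter, and for a CTCF word that coincides with a footprint.
Kcnn1, at -2.57 kb from the TSS, chr8:70865701-70865960: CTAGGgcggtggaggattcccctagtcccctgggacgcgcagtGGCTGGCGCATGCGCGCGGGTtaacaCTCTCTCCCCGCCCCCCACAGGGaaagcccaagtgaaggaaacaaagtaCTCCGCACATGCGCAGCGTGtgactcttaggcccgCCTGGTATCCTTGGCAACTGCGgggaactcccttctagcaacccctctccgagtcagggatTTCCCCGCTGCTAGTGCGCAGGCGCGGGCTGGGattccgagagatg
Kcnk5, at -8.17 kb from the TSS, chr14:20189861-20190100: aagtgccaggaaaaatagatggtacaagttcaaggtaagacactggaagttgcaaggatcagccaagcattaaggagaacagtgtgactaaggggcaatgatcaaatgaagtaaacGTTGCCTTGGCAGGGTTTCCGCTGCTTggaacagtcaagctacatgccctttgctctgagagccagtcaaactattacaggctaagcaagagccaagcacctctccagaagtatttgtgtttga
Kcnj15, intron, 30.3 kb into the gene, chr16:95287741-95287980: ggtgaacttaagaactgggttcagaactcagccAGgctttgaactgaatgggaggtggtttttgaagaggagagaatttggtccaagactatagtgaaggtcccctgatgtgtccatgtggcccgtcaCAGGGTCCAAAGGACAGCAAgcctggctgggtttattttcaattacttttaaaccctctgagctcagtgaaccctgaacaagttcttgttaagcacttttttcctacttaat
Kcnk16, downstream flank, chr14:20258561-20258780: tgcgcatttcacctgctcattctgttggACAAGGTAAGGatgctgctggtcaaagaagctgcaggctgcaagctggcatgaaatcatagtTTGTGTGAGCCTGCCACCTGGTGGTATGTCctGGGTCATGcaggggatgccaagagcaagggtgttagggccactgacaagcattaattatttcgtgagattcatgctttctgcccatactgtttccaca
The 4 stretches differ in base composition and in how much of them is footprinted. The Kcnn1 region holds 19 CpG in 260 bases and has 124 bases in footprints of both libraries, while those of Kcnk5, Kcnj15 and Kcnk16 hold 2, 1 and 2 CpG and have 27, 22 and 49 such bases.

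The Kcnn1 region was the strongest distal region of the family, at 16.6 and 15.8, close to the Kcnab2 promoter in level. Its edge lies 10 bases from a predicted RefSeq mRNA start of Kcnn1, so it is distal only under the GENCODE coding starts. With RefSeq starts it became the strongest promoter region of the gene. Within its footprints lie the NRF1 word and the SP/KLF word, read as CCCCGCCCC on the printed strand. NRF1, a factor of CpG-rich promoters, has its word in 2 of the 294 distal regions of channels (0.68%) and in 0.0763% of all distal regions.

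Kcnk5 had 7 distal regions, all in its introns save the one at -8.17 kb. That one measured 5.91 and 4.25, close to the promoter's 5.24 and 7.42. An intron region 16.3 kb from the TSS measured 3.94 and 3.0, and the others lay between 0.868 and 2.14 (means of the 2 libraries). Kcnk1 had 5, all intronic, of which the strongest (2.41 and 2.17) lay beside the promoter region and exceeded it in both libraries. Kcnj2 had only 2 weak ones, at 0.852 and 1.34 and at 0.438 and 0.884. Its accessibility within 10 kb was thus largely that of the promoter.

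**Figure D4:**
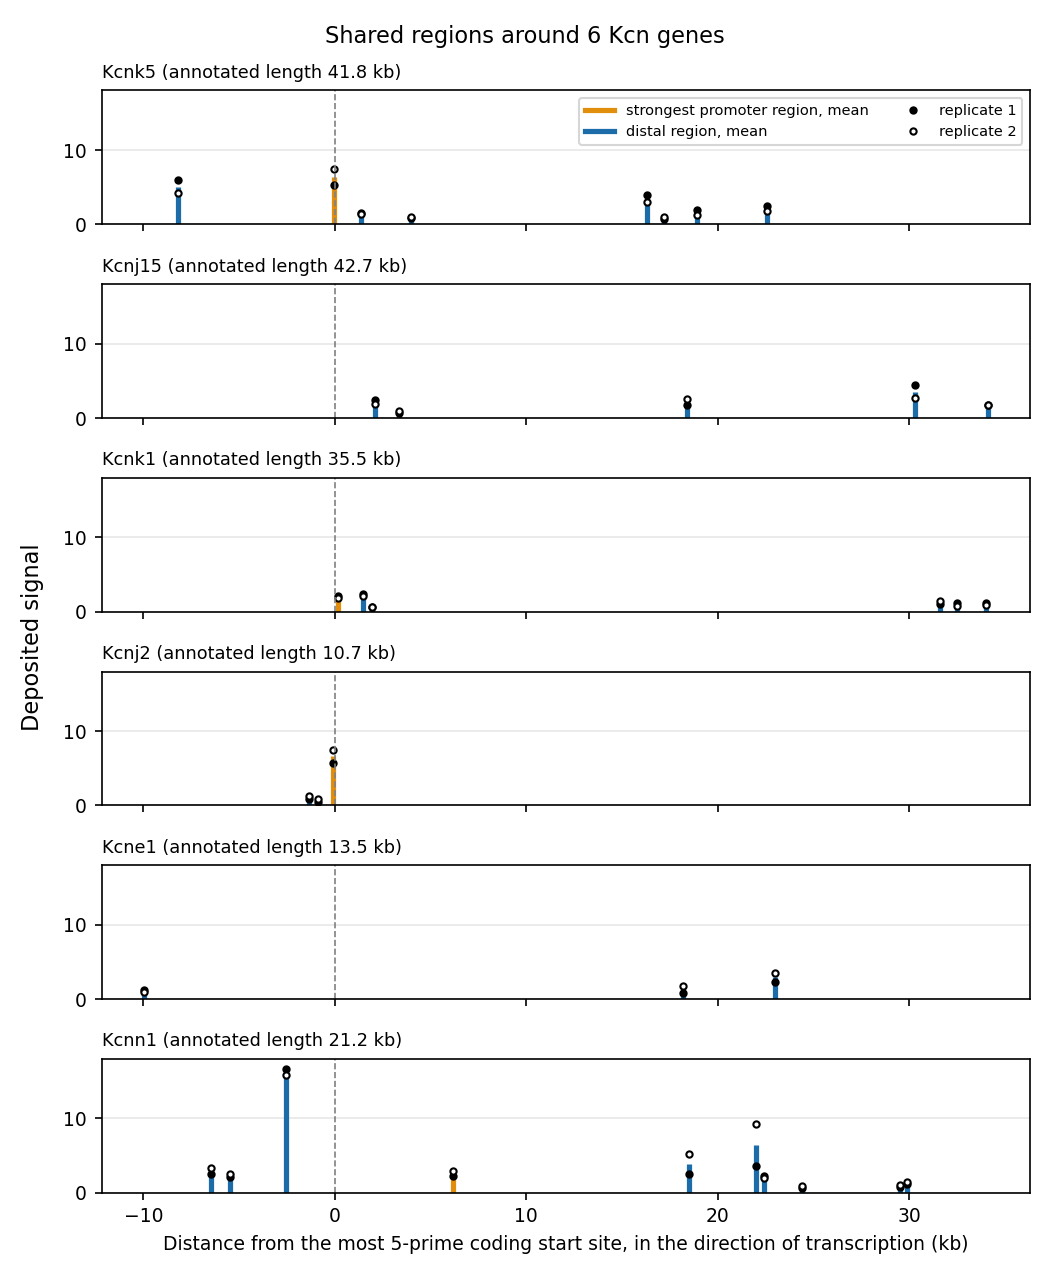
Signal (vertical axis) of the strongest promoter region (orange bar, mean of the libraries) and of distal regions (blue bars) against distance from the most 5′ coding TSS in the direction of transcription (horizontal axis, kb) for 6 Kcn genes, with replicate 1 as filled and replicate 2 as open circles. Kcnj15 and Kcne1 have distal regions without an open promoter, and the tallest bar is the Kcnn1 region at -2.57 kb.

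Kcne1, closed at its promoter, had a region of 2.34 and 3.54 in its downstream flank. Kcnj12 and Kcnj4, whose CpG-rich promoters are printed above, each had 3 distal regions. The strongest measured 1.89 and 1.70 at Kcnj12, in an intron, and 1.84 and 2.40 at Kcnj4, in the upstream flank. Kcnj9 had regions of 2.15 and 2.69 and of 2.05 and 2.65. Closed promoters of the family thus often stood near accessible DNA. Regions of mean signal 2 or more made up 19% of the channels' distal regions and 18.1% of all distal regions.

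Consensus words were searched on both strands in the central 200 bases of each region. Of 54 channel promoter regions, 7 (13.0%) held the SP/KLF word, against 14.8% of all promoter regions. None of the other 13 words fixed for the search was found in them. These words are rare in all promoter regions too. The shares there were 4.79% for the ETS word CCGGAAGT, 3.24% for AP-1, 2.16% for the steroid receptor word and at most 1.39% for each other. The share of regions holding any of the 13 words was not computed, and their absence from the 54 regions was not tested. Among distal regions, the HNF4 word CAAAGTCCA, of a nuclear receptor of proximal tubule and liver, was in 11 of 294 (3.74%), against 1.61% of all distal regions. These 11 lay at Kcnb2, Kcne1l, Kcne4, Kcnh1, Kcnh4, Kcnh6, Kcnh8, Kcnj12, Kcnma1 and Kcnrg. HNF4 was not the only word with a higher share at channels. The SP/KLF word was in 3.06% against 1.5%, that of NF1 in 1.02% against 0.153% and the ETS word in 1.02% against 0.476%. Lower shares were those of ERR (0.68% against 0.746%), GATA (1.7% against 1.86%) and TEAD (1.36% against 1.96%). The AP-1 word TGANTCA was in 6.46% against 7.86%, and the steroid receptor word ACANNNTGT in 6.46% against 6.23%. The NRSF/REST word, bound by a repressor of neuronal genes, was in 1 distal region (0.34%), at Kcnh2, against 0.102% of all distal regions. A word is only a match of letters and not evidence that the factor was bound.

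Of the 294 distal regions, 51 (17.3%) were over 2-fold higher in replicate 2, against 8.98% of all distal regions. Regions with a word for CTCF, an insulator protein, were also compared between libraries, which was not done for the other words. The strict word was in 3 distal regions of channels (1.02%, against 0.560% of all), Kcnc4 and Kcnk16 among their genes. The Kcnk16 region printed above carries it inside a footprint, on the opposite strand, and measured 1.57 and 4.59. A degenerate CTCF core, chosen after the data were seen, was in 28 (9.52%), against 6.65% of all distal regions. In 16 of these 28 (57.1%) the signal was over 2-fold higher in replicate 2, against 40.2% of all distal regions with the core. Without the core the shares were 13.2% of channel regions and 6.76% of all. The median ratio of replicate 2 to replicate 1 was 2.06 with the core and 1.03 without it. Over all distal regions it was 1.84 and 0.923, so the same split was present there. No channel region with the core was over 2-fold higher in replicate 1, against 0.0971% of all distal regions with the core. Besides Kcnk16, a region in the downstream flank of Kcng1 with the core showed such a gap (1.56 and 4.59).

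**Figure D5:**
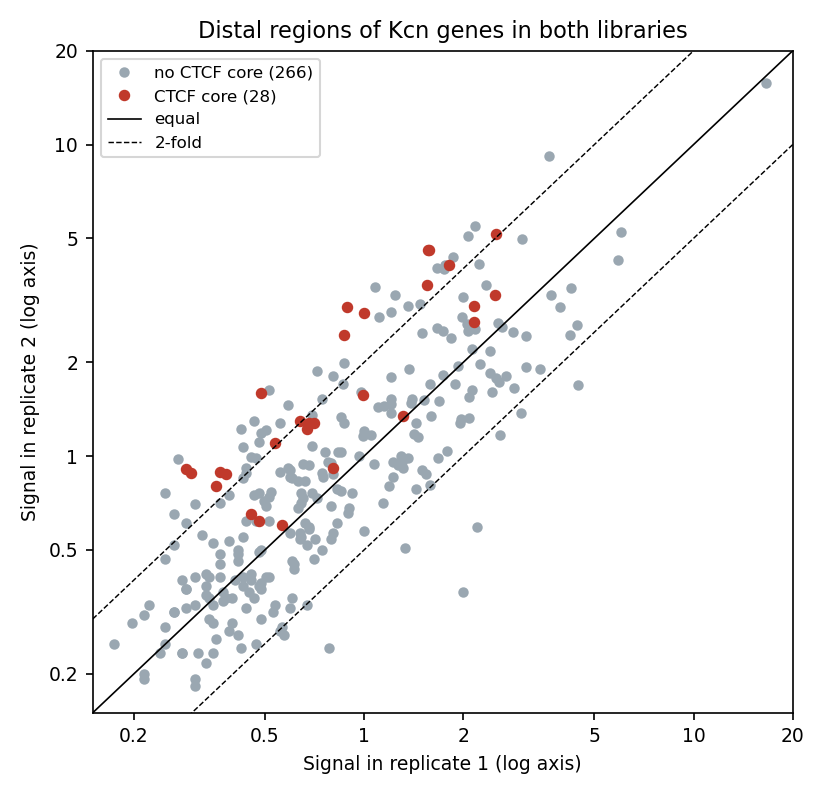
Signal of the 294 distal regions of Kcn genes in replicate 1 (horizontal log axis) and replicate 2 (vertical log axis), with the 28 that hold the degenerate CTCF core in red. The solid line marks equal signal and the dashed lines 2-fold differences; 16 of the red points lie above the upper dashed line and none below the lower one.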

How the data were processed

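DNase-seq of kidney was analysed in 2 libraries. The authors deposited files made from each library alone on mm10, per the headers of the text lists beside them. No source used here names the aligner or callers. Of the 2 peak lists of a library, the longer was the main one (137060 and 124976 peaks on chromosomes 1 to 19 and X). The authors deposited a signal value for each peak. Every signal was a whole multiple of a step of 0.00827 or 0.00834 within 0.05 steps, so a signal of 0.5 is about 60 steps, with a counting error of 12.9% if a step is 1 tag. The deposited cut-rate file gives an FDR (q-value) of at most 0.05 for runs of bases, and the footprint file a constant level of 0.01, as deposited.

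Peaks of both libraries that overlapped by at least 1 base were joined (96735 shared regions). The signal of a promoter is that of its region with the highest mean. At Kcng4 alone, the highest value of each library would come from different regions (0.521 and 0.542). Distal regions lay outside all coding promoter windows, in the gene body or 10 kb around it. Genes came from GENCODE M21 and sequence from GRCm38.p6. Motif searches used both strands. Named genes were the strongest promoters overall and by subfamily, those with most or strongest distal regions, those over 2-fold apart, and functional lists. Members and lists were chosen with earlier results of these data known. Scripts used Python 3.11.15, pandas 2.3.3 and pysam 0.24.0. Region joining was tested on simulated peaks, and the overlap of peaks between libraries was checked against bedtools 2.31.1. Exact binomial intervals (95%) reflect counting error alone. The alternatives tried were other windows, peak lists, starts, overlaps, flanks and CpG limits, and each library alone. Some genes of the family are counted but not reported by name here.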

Additional observations from a re-analysis of the deposited data

How the results depend on the processing

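The number of open channel promoters stayed within 1.5 times of 41 under 8 of 9 settings. With a window of 100 bases it was 35 (38.9%), against 59.3% of all genes. With 2000 bases it was 50 (55.6%), against 67.4%. With the shorter peak list it was 31 (34.4%), against 58.9%. With RefSeq starts, which were added after the data were seen, it was 44 (48.9%), against 63.7% of all genes with a RefSeq mRNA. With the stronger 50% of peaks it was 20 (22.2%), against 56.5% of all genes. It was 46 to 49 from 1 library alone (51.1% to 54.4%), against 64.5% to 65.1% of all genes. The median promoter signal was 1.35 with the shorter list and 1.19 with a window of 100 bases. Open inward rectifiers numbered 7 with a window of 2000 bases. The median number of distal regions was 1 in the gene body alone and 7 with a flank of 50 kb (all genes 1 and 6), and 3 from either library alone (all genes 2 and 3), so it follows the width searched and the requirement of both libraries. The degenerate CTCF core gave 28 matches in place of 3, by its looser letters. With a CpG limit of 0.5 the open share of CpG-rich channels was 52.6%, against 89.8% of all such genes. No paired analysis was possible because there is 1 group. The stricter threshold of the shorter list removed 10 open promoters, all with means under 0.6. The effect of depth was not tested. With 2 libraries, a promoter near the detection limit counted as closed is not shown to be inaccessible.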
